A study of Homo sapiens with 12 samples.

Results

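BASP1, MARCKS, MARCKSL1 and GAP43 encode membrane-bound, actin-linked proteins, and their transcripts were followed in IGROV-1 ovarian cancer cells with and without stable RNA interference of CXCR4. The 4 genes were taken through every probe set that the platform annotation assigns to exactly 1 of these symbols, which gave 11 of the 54613 non-control probe sets of the array, for 4 of 19775 genes with such a probe set. BASP1 has 2 of them, MARCKS 5, MARCKSL1 1 and GAP43 3. BASP1 was chosen by its measured fall in both knockdown lines against both controls, so its values in those comparisons are a description with no test. The other 3 genes are its functional relatives, and whether their values entered the choice is not recorded.

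BASP1, MARCKS and GAP43 are intrinsically unstructured, acidic proteins that are held at the inner face of the plasma membrane by an acyl chain and a basic domain. The basic domain binds phosphatidylinositol 4,5-bisphosphate (PIP2), and phosphorylation by protein kinase C (PKC) releases it, so that the proteins can control how much PIP2 is free to act on the actin cortex. MARCKS and MARCKSL1 share this basic effector domain and are widely expressed, while BASP1 and GAP43 are best known from the growth cones of neurons. BASP1 also has a nuclear form that acts as a corepressor of the transcription factor WT1, which is itself present in many ovarian carcinomas.

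The 12 arrays form 4 groups of 3. Parental IGROV-1 cells were not transfected. Mock cells received a plasmid with scrambled RNA and were kept as a pool of clones. The cells labelled shCXCR4 (I) and shCXCR4 (II), here lines I and II, carry different short hairpin RNAs against CXCR4, the receptor of the chemokine CXCL12, and are individual clones. Mock, line I and line II were transfected with a lipid reagent (Lipofectamin) and kept in puromycin at 4 µg/ml for 30 days, which Parental cells were not, and all groups were grown in the same serum-containing medium. Knockdown and clonal origin therefore cannot be told apart in any comparison of a line with a control, and transfection and drug selection cannot be told apart in any comparison with Parental. The labels do not say that the arrays of a group came from separate cultures, so p-values measure only the spread between arrays, which may be technical.

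Values are RMA log2 intensities, and the 12 array medians ran from 4.25 to 4.39. CXCR4 itself, on 217028_at, averaged 8.33, 8.58, 7.09 and 6.62 in Parental, Mock, line I and line II, so that the lines kept 35.6% and 25.7% of the Mock level. Of 15 markers of ovarian epithelium, 13 lay above the array median on all 12 arrays, and MUC16 and MSLN did not. Their summed log2 value was 121.3 to 121.9 in Parental and 121.5 to 122.5 in Mock, and it lay above both in line I, at 123.1 to 123.6, and below both in line II, at 118.8 to 119.9. Of markers of other cell types, 7 of 11 neuronal, 5 of 11 fibroblast, 3 of 8 endothelial and 2 of 9 leukocyte genes lay above the array median on all 12 arrays. The summed log2 value of the neuronal markers was 53.78 to 53.91 in Mock and 53.01 to 54.58 in Parental, against 55.01 to 55.44 in line I and 54.51 to 55.64 in line II. The leukocyte sum was 34.12 to 35.36 in Mock, 35.06 to 35.97 in Parental, 36.07 to 36.75 in line I and 35.8 to 36.62 in line II. Fibroblast sums were 45.12 to 45.4 in Mock, 45.6 to 46.6 in Parental and 45.21 to 45.86 in line I, and in line II, at 45.41 to 46.91, every array lay above every Mock array. Endothelial sums overlapped between each line and each control. The part of these shifts in the results was not tested. The array medians were lowest in Mock, at 4.251 to 4.282, against 4.301 to 4.321 in Parental, 4.329 to 4.344 in line I and 4.31 to 4.385 in line II. How far the marker sums follow these medians was not tested.

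The 250 bases upstream of each RefSeq transcription start (GRCh38.p14) are shown because 3 of the genes differed between groups at the RNA level and the fourth was near the bottom of the scale. Each runs 5′ to 3′ on the gene's strand, and capitals mark matches to the letters CCAAT (the CCAAT box) and GGGCGG (the GC box) on either strand (ATTGG and CCGCCC on the opposite strand), with overlapping matches run together. They lie at chr5:17216573-17216822 (plus strand) for BASP1, chr6:113857095-113857344 (plus) for MARCKS, chr1:32336234-32336483 (minus) for MARCKSL1 and chr3:115623260-115623509 (plus) for GAP43.
BASP1: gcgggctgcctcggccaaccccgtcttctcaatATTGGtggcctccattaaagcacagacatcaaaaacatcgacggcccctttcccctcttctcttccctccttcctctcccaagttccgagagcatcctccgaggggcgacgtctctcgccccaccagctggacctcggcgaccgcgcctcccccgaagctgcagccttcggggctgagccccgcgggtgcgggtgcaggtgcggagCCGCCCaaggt
MARCKS: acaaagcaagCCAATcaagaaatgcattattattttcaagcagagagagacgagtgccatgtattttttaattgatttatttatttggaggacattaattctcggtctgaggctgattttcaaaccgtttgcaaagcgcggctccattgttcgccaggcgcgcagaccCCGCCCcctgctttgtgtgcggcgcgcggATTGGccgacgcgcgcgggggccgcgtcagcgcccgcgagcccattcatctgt
MARCKSL1: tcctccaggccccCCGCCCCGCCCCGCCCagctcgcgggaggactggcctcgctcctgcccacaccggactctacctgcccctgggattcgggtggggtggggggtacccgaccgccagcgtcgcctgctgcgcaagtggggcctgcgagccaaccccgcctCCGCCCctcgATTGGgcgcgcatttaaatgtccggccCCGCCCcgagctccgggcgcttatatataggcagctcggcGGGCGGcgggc
GAP43: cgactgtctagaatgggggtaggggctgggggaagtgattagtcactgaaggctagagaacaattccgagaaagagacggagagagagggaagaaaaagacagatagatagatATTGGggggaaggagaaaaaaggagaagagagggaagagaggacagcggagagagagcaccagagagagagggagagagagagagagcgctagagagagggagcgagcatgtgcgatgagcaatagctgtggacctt
The BASP1 stretch holds 21 CpG dinucleotides at 65.6% GC, MARCKS 23 at 52.8%, MARCKSL1 28 at 74.0% and GAP43 7 at 51.6%, where the median over 35116 promoters of this length was 11 CpG dinucleotides and 58.0% GC. CCAAT matched at 1 place in BASP1, MARCKSL1 and GAP43 and at 2 in MARCKS, and 32.0% of all promoters hold it. GGGCGG matched at 1 place in BASP1, 1 in MARCKS, 6 in MARCKSL1 and none in GAP43, against 42.6% of all promoters with a match. The letters TATAAA, searched the same way, are in none of the 4 windows and in 10.7% of all promoters. A match describes these letters only.

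BASP1 was at a moderate level in both controls and below the array median in both knockdown lines. On 202391_at the Parental arrays read 6.07, 6.23 and 6.14 and the Mock arrays 6.37, 6.58 and 6.84. The line I arrays read 3.68, 3.76 and 3.56 and the line II arrays 3.67, 3.62 and 3.68. All 6 line arrays lay below all 6 control arrays with a wide gap, all 6 fell short of their own array's median, and every Mock array lay above every Parental array.

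The group means were 6.15 ± 0.08 for Parental and 6.60 ± 0.23 for Mock, against 3.67 ± 0.10 for line I and 3.66 ± 0.03 for line II (SD, n = 3 arrays each). The log2 difference from Mock was -2.93 for line I (95% interval -3.15 to -2.71) and -2.94 for line II (-3.16 to -2.72), so that 13.1% and 13.0% of the Mock value were left. From Parental the lines differed by -2.48 and -2.49, which left 17.9% and 17.8%. Because the lower values sit below the array median and no background level is given, these percentages describe the deposited intensities, and the true loss of transcript may be of another size. The gene was chosen for these differences, and both lines are compared with the same Mock and the same Parental arrays.

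Line I minus line II was 0.01 on 202391_at (95% interval -0.21 to 0.23). That is a description too, since the choice asked for low values in both lines and both means lie below the array median with no stated floor. Mock exceeded Parental by 0.45 (SE 0.10, 1.37-fold, limma adjusted p = 0.0132), a difference that uses the Mock arrays on which the choice also rested. The Mock excess no longer passed when only Mock and Parental entered the fit (limma adjusted p = 0.0542), without Parental replicate 1 (0.41, adjusted p = 0.0607) or without Mock replicate 3 (0.33, adjusted p = 0.0504). Averaged over both BASP1 probe sets it was 0.16 (limma adjusted p = 0.317).

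The other BASP1 probe set, 228589_at, did not show this pattern. The Parental arrays read 4.48, 4.33 and 4.49 and the Mock arrays 3.99, 4.60 and 4.30, beside 4.56, 4.12 and 4.23 for line I and 4.54, 4.51 and 4.29 for line II. The 4 groups overlap, around the array medians. Its difference from Mock was 0.005 for line I (95% interval -0.30 to 0.30) and 0.15 for line II (-0.15 to 0.45), and from Parental -0.13 and 0.02. These intervals leave out changes of the size seen on 202391_at, so the probe sets disagree. Averaging them gave -1.46 and -1.40 for lines I and II against Mock, and -1.31 and -1.24 against Parental. Between the lines 228589_at differed by -0.14 and between Mock and Parental by -0.13, neither past the test (limma adjusted p = 0.697 and 0.654). Where each probe set lies in the transcript is not given in the tables used here.

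The divergent neighbour BASP1-AS1, which overlaps the BASP1 gene over 600 bases in RefSeq and was added after its values were seen, has 1 probe set. It averaged 2.84, 2.60, 2.67 and 2.80 in Parental, Mock, line I and line II. These values all lie below the array medians, and limma called it in none of the 6 comparisons.

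**Figure D1:**
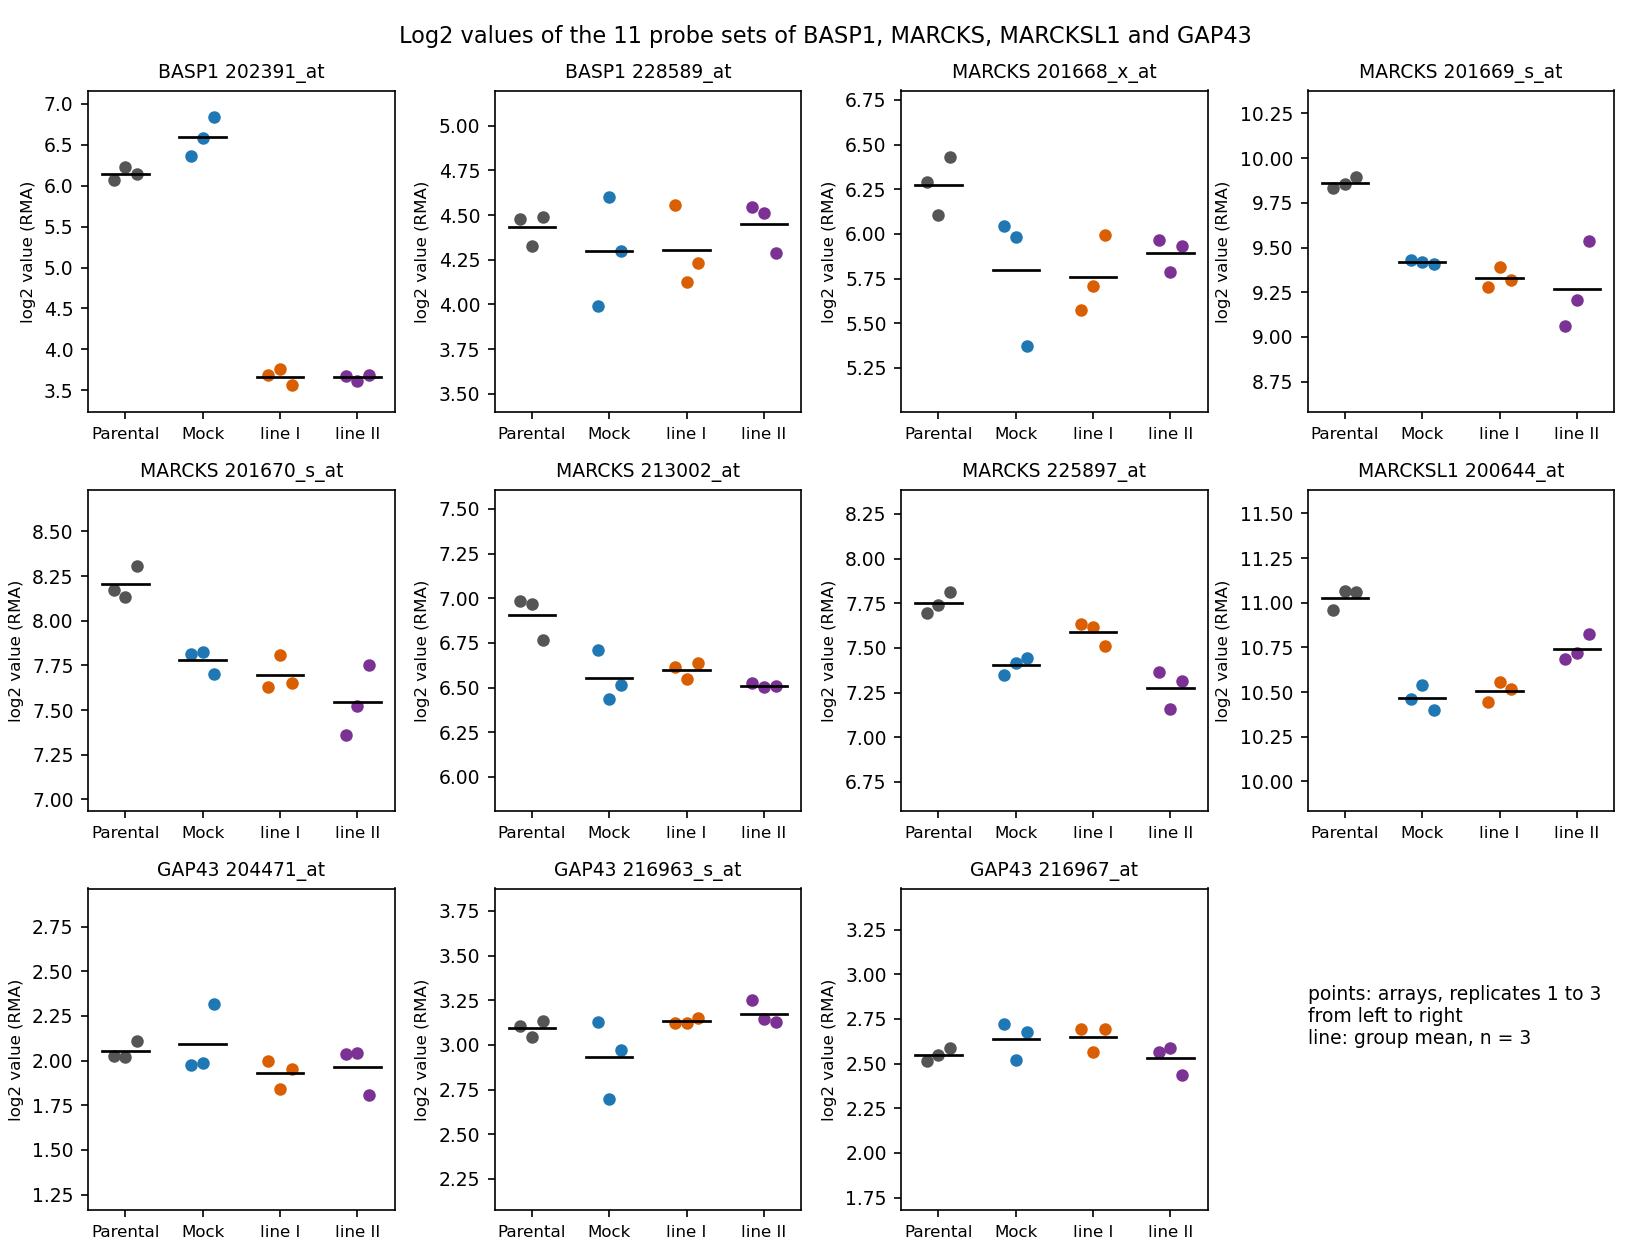
Log2 intensity (y axis, own range in each panel) of the 11 probe sets of BASP1, MARCKS, MARCKSL1 and GAP43 on each of the 12 arrays, by group on the x axis. Points are arrays and bars are group means. BASP1 202391_at separates both lines from both controls, 228589_at does not, the MARCKS and MARCKSL1 panels set Parental above the rest, and the GAP43 panels run from 1.81 to 3.25.

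The genes with the profile most like BASP1 were found by the root mean square difference between the 12 centred log2 values of 202391_at and those of every other gene. The closest was NCALD, which encodes the neuronal calcium sensor neurocalcin delta, at 0.276. Its means were 7.16, 7.56, 4.60 and 4.36 in Parental, Mock, line I and line II, so it too was low in both lines and a little higher in Mock than in Parental. Its values come from a probe set named _s_at, which can bind more than 1 transcript.

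THSD7A, a membrane protein with thrombospondin domains, followed at 0.448, with 6.79, 7.40, 4.88 and 3.67 in the same order of groups. Unlike BASP1 it stood lower in line II than in line I, by 1.21 on the log2 scale. The rule fixed the number of genes at 5. TCF7L1, a transcription factor of the Wnt pathway, came next at 0.464, then EYA4, a transcriptional coactivator, at 0.494 and the interleukin-1 receptor IL1R1 at 0.552. Mock exceeded Parental in TCF7L1 by 0.88 and in EYA4 by 1.13, while for IL1R1 Mock minus Parental was -0.33. The likeness is a description over 12 arrays that share 4 group means.

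**Figure D2:**
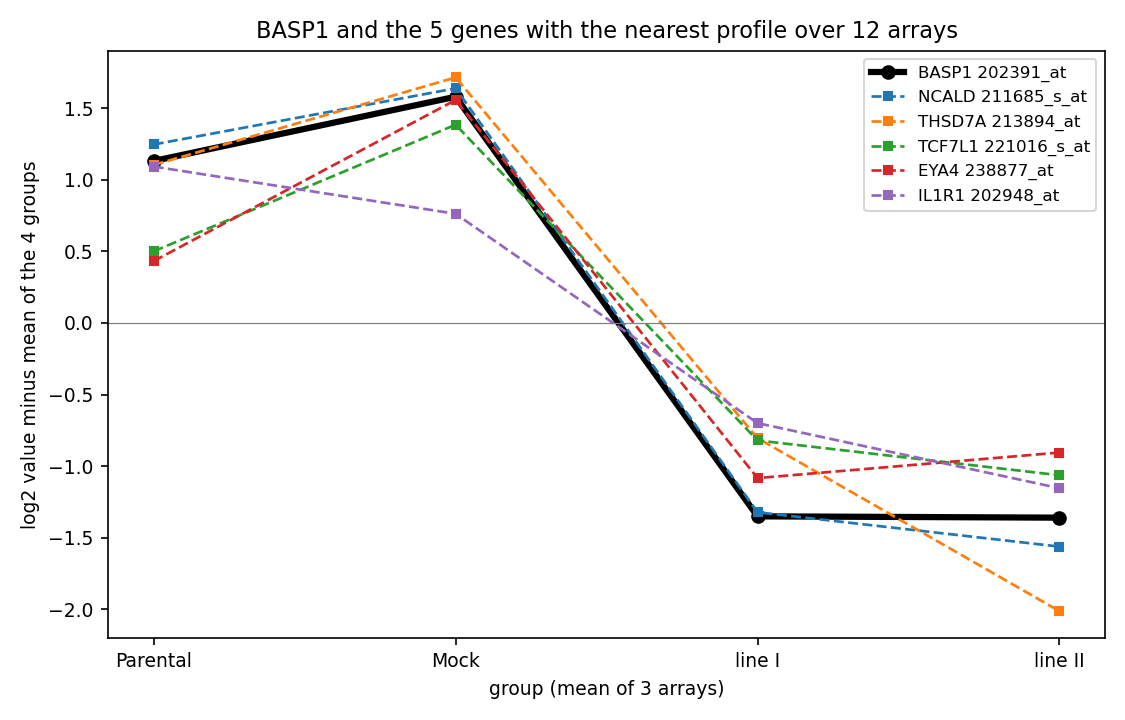
Group means of the log2 value, centred on the mean of the 4 groups (y axis), for BASP1 202391_at (thick line) and the 5 genes with the nearest profile, over the 4 groups on the x axis. The profiles lie above 0 in both controls and below 0 in both lines, and Parental lies below Mock except in IL1R1, by as much as 1.13 in EYA4.

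MARCKS, the widely expressed PKC substrate, did not follow BASP1. Its highest values were in untransfected cells, and Mock, line I and line II lay together below them. On 201669_s_at, the probe set with the highest mean, the Parental arrays read 9.83, 9.85 and 9.89 and the Mock arrays 9.43, 9.42 and 9.41. The line I arrays read 9.28, 9.39 and 9.32 and the line II arrays 9.06, 9.20 and 9.54. The lowest Parental array thus exceeded the highest array of each other group, and the line II arrays had the widest spread and overlapped both Mock and line I.

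The differences from Parental on 201669_s_at were -0.44 for Mock (SE 0.10, limma adjusted p = 0.0108), -0.53 for line I (0.00235) and -0.59 for line II (0.00114). These levels amount to 73.6%, 69.2% and 66.3% of Parental. The 3 differences share the Parental arrays. Against Mock, the same probe set gave -0.09 for line I (95% interval -0.30 to 0.12) and -0.15 for line II (-0.36 to 0.06), and neither passed. Without line II replicate 3, the highest of that group, the latter was -0.28 and passed (limma adjusted p = 0.0161).

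On the other 4 MARCKS probe sets Parental had the highest mean too. On 201670_s_at the Parental arrays read 8.17, 8.13 and 8.31, the Mock arrays 7.82, 7.82 and 7.70, the line I arrays 7.63, 7.81 and 7.65 and the line II arrays 7.36, 7.52 and 7.75. The differences of Mock, line I and line II from Parental were -0.43, -0.51 and -0.66 (limma adjusted p = 0.0127, 0.00292 and 0.000439). Again Parental stood apart, and the other groups overlapped. The Mock call ended without Parental replicate 3 (-0.37, limma adjusted p = 0.0662) or Mock replicate 3 (-0.39, 0.0529), and line II against Mock, -0.24, passed without line II replicate 3 (-0.34, 0.0189).

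On 213002_at the Parental arrays read 6.98, 6.97 and 6.77, the Mock arrays 6.71, 6.44 and 6.51, the line I arrays 6.62, 6.55 and 6.64 and the line II arrays 6.52, 6.50 and 6.51. The falls from Parental were smaller here, at -0.35, -0.31 and -0.40 for Mock, line I and line II (limma adjusted p = 0.0167, 0.0299 and 0.00706). The line I call ended without any 1 array of line I or without Parental replicate 1 or 2 (limma adjusted p between 0.0638 and 0.12, differences of -0.27 to -0.32). The Mock call ended without Parental replicate 1 or 2 or Mock replicate 2 or 3 (limma adjusted p of 0.0586 to 0.0781, differences of -0.29 to -0.33). On 201668_x_at the means were 6.28 ± 0.16 for Parental, 5.80 ± 0.37 for Mock, 5.76 ± 0.21 for line I and 5.89 ± 0.10 for line II (SD, n = 3). With this wider spread none of its differences from Parental passed, at -0.48, -0.52 and -0.38 (limma adjusted p = 0.0819, 0.0508 and 0.146). Mock replicate 3, at 5.37, lay lowest, and in the fit without it both lines passed (limma adjusted p = 0.0077 and 0.0421).

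On 225897_at the lines differed past the test. The Parental arrays read 7.70, 7.74 and 7.82, the Mock arrays 7.35, 7.41 and 7.44, the line I arrays 7.64, 7.62 and 7.51 and the line II arrays 7.36, 7.16 and 7.31. Every line I array lay above every Mock and every line II array, and below every Parental array. Line I exceeded line II by 0.31 (SE 0.07, 1.24-fold, limma adjusted p = 0.0363), and the difference from Parental was -0.47 for line II (0.000841) and -0.16 for line I (0.216). Mock minus Parental was -0.35 (limma adjusted p = 0.00914) and ended without Parental replicate 3, at -0.32 (0.0501).

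On the remaining MARCKS probe sets line I minus line II was -0.14, 0.06, 0.15 and 0.09, and none passed. On 213002_at, with 0.09, every line I array also lay above every line II array. The difference on 225897_at also lost its call in a fit of the lines alone (limma adjusted p = 0.119), with a replicate block (0.0642) and in 7 of the 12 fits that left out 1 array. Those 7 left out any 1 array of Parental (limma adjusted p = 0.0503 to 0.0562), any 1 of line I (0.0565 to 0.141, differences of 0.29 to 0.35) or line II replicate 2 (0.25, 0.145). Averaged over all 5 probe sets, MARCKS differed from Parental by -0.41, -0.41 and -0.50 in Mock, line I and line II (limma adjusted p = 0.000657, 0.000523 and 0.000118), and from Mock by 0.004 and -0.09 in the lines. The x_at and s_at names mark probe sets that can bind related transcripts.

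MARCKSL1, the smaller relative of MARCKS, was also highest in Parental cells. On 200644_at the Parental arrays read 10.96, 11.07 and 11.06, the Mock arrays 10.46, 10.54 and 10.40, the line I arrays 10.44, 10.56 and 10.51 and the line II arrays 10.69, 10.72 and 10.83. The groups fell into 3 steps with no overlap between them: Mock with line I at the bottom, then line II, then Parental. The spread within groups was small, with SDs of 0.06 to 0.07.

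Against Parental, MARCKSL1 was lower at -0.56 for Mock (SE 0.07, limma adjusted p = 0.000152), -0.52 for line I (0.000198) and -0.29 for line II (0.0187). These are 67.8%, 69.6% and 82.1% of the Parental level, again with shared Parental arrays. Line II exceeded Mock by 0.28 (SE 0.07, 1.21-fold, limma adjusted p = 0.0167), and line I did not differ from Mock past the test, at 0.04 (95% interval -0.11 to 0.19). The direct difference of line I from line II, -0.24 (95% interval -0.39 to -0.09), missed the threshold at limma adjusted p = 0.0931.

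The smaller MARCKSL1 differences depended on the setting. The excess of line II over Mock ended after median centring of the arrays, at 0.20 (limma adjusted p = 0.104), in a fit of these groups alone (0.0736) and without Mock replicate 3, at 0.24 (0.059). The fall of line II from Parental ended in a fit of these groups alone (limma adjusted p = 0.0501), without Parental replicate 2 (0.078) or 3 (0.0743) and without line II replicate 1 (0.0646) or 2 (0.0656), at differences of -0.26 to -0.27 without an array.

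GAP43, the growth cone protein and PKC substrate, was close to the bottom of the scale in every group. Its 3 probe sets lay below the array median on all 12 arrays, between 1.81 and 3.25. On 216963_s_at the Parental arrays read 3.10, 3.04 and 3.14, the Mock arrays 3.13, 2.70 and 2.97, the line I arrays 3.13, 3.12 and 3.15 and the line II arrays 3.25, 3.14 and 3.13. Mock replicates 2 and 3 lay below every array of the other 3 groups, and those groups overlapped.

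No GAP43 probe set was called by limma in any of the 6 comparisons, and at an unadjusted p under 0.05 there was 1 difference. That was line II minus Mock on 216963_s_at, 0.24 (95% interval 0.04 to 0.44, limma adjusted p = 0.094). Without Mock replicate 1 it was called, at 0.34 (limma adjusted p = 0.0225), as was line I minus Mock at 0.30 (0.042). The group means of 204471_at lay within 0.16 of each other and those of 216967_at within 0.12.

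Outside BASP1, which was not tested in the comparisons of a line with a control, most calls were differences from Parental. Of the 6 MARCKS and MARCKSL1 probe sets, all had every Mock array below every Parental array, where 12.3% of all probe sets did. The same held for all 6 in line I, against 14.5% of all probe sets, and for all 6 in line II, against 13.4%. Among the 11 member probe sets in Mock against Parental, 5 fell, where 3.04% of all probe sets did, and 1 rose, where 4.95% did. That rise was BASP1 202391_at, a difference that uses Mock arrays on which the choice also rested. Leaving out BASP1, 4 of 9 fell in line I against Parental (5.41% of all probe sets) and 5 of 9 in line II against Parental (6.01%). Each of these falls was in MARCKS or MARCKSL1, and MARCKS accounts for 5 of the 6 probe sets, which report on 1 gene.

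Against Mock, 0 of 9 member probe sets outside BASP1 were called in line I, where limma called 14.2% of all probe sets in either direction. At an unadjusted p under 0.05, 1 of these 9 passed, MARCKS 225897_at. In line II against Mock 1 of 9 rose, MARCKSL1, against 7% of all probe sets, and none fell, against 9.23%, although MARCKS 201670_s_at and GAP43 216963_s_at passed at an unadjusted p under 0.05. Between the lines 1 of 9 outside BASP1 was higher in line I, against 2.02%, and none was lower, against 0.992%, although MARCKSL1 passed unadjusted. With 9 probe sets, 5 of them of MARCKS, the counts against Mock and between the lines are too few to compare with the whole array.

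**Figure D3:**
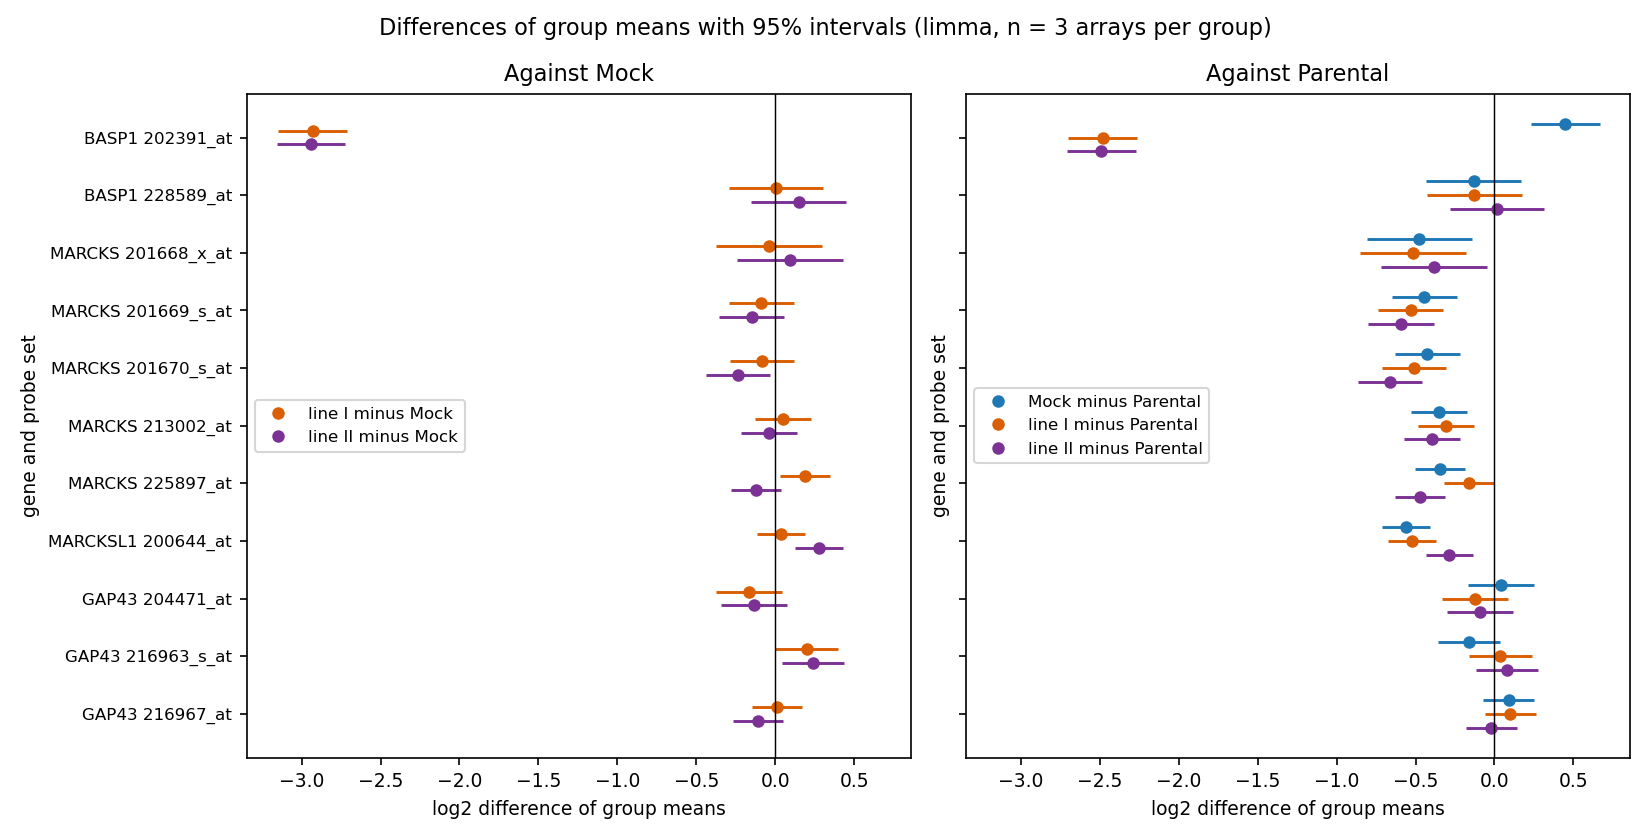
Log2 difference of group means (x axis, same scale in both panels) of each of the 11 probe sets (y axis), against Mock in the left panel and against Parental in the right, with points for the estimates and bars for 95% intervals of the limma fit. BASP1 202391_at stands at -2.93 and -2.94 against Mock and at -2.48 and -2.49 against Parental, and the MARCKS and MARCKSL1 intervals lie left of 0 in the right panel.

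The genes that act with this family were read from 8 lists, with 1 probe set per gene, the one with the highest mean. Of 183 genes 167 were measured. Over all 19775 genes, limma called 7.67% higher and 11.3% lower in line I against Mock, and 8.19% higher and 12.6% lower in line II, with median log2 differences of 0.02 in each. Against Parental the shares were 6.52% higher and 6.93% lower in line I and 5.41% and 7.72% in line II. Mock against Parental gave 7.28% higher and 4.05% lower, and line I against line II 3.12% and 1.38%. The comparisons of both lines share the Mock arrays, and the lists were described with no test of the list itself. Median centring of the arrays lowers list medians against Mock, and the medians of 3 lists changed sign with it in line I (linkers, growth cone genes, WT1 targets) and that of the PKC isoforms in line II. Quantile normalization turned those of PIP2 metabolism and the corepressor list in line II. Medians for the acyltransferase list and the actin regulators kept their sign in both lines.

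Among the PKC isoforms, the kinases that phosphorylate MARCKS and GAP43, 1 of 8 rose and 2 fell in line I against Mock, and 3 rose and 2 fell in line II, with medians of 0.11 and 0.07. PRKCA, the classical alpha isoform, fell against Mock with differences of -0.70 and -1.09 in lines I and II (SE 0.08 each, limma adjusted p = 2.98e-05 and 4.02e-07). It stood 0.91 higher in Mock than in Parental (limma adjusted p = 3.19e-06), and against Parental the lines had 0.22 and -0.17, neither past the test.

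PRKCE, the epsilon isoform, rose by 0.27 and 0.30 against Mock (limma adjusted p = 0.0372 and 0.0226). Averaged over its probe sets it turned to -0.0095 and -0.06 and passed in neither line. Against Parental it had 0.07 and 0.10 and did not pass. PRKCH, the eta isoform, rose by 0.40 in the line II cells (limma adjusted p = 0.01), and PRKCD, the delta isoform, passed in neither line against Mock. Against Parental PRKCD was higher in Mock, line I and line II, by 0.34, 0.37 and 0.34 (limma adjusted p = 0.0294, 0.0143 and 0.0248). Each of these calls ended without Parental replicate 2 or 3, at limma adjusted p of 0.0612 to 0.126.

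A list of 17 measured genes held acyltransferases that attach myristate or palmitate, and kinases and phosphatases that set the phosphorylation of the basic domain. It also held METAP1 and METAP2, which belong to none of these classes. METAP2 had -0.32 and -0.42 against Mock in lines I and II (limma adjusted p = 0.00992 and 0.00188) and is among the falls counted here. In line I against Mock 8 fell and 0 rose, with a median of -0.23, and in line II 8 fell and 1 rose, with a median of -0.20. Against Parental 2 fell and 1 rose in line I, and 5 fell and 0 rose in line II.

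NMT1, the N-myristoyltransferase that acylates BASP1 and MARCKS, fell against Mock, with -0.41 and -0.29 in lines I and II. Quantile normalization took the line II call away, at -0.19 (limma adjusted p = 0.061), and against Parental NMT1 had -0.31 (0.016) and -0.18 (0.146). The NMT1 call in line I against Parental ended without x_at and s_at probe sets (-0.08, 0.605) and averaged over its probe sets (-0.18, 0.07). NMT2, its paralog, had -0.50 in line I (limma adjusted p = 0.0132) against -0.20 for line II, and the former call ended without Mock replicate 2 (-0.41, 0.0661) or line I replicate 3 (-0.42, 0.0674). Against Parental NMT2 had -0.10 and 0.20 and passed in neither line. Its group means, 3.91 to 4.41, lay around the array medians. ZDHHC2, a palmitoyltransferase, rose by 0.27 in the line II cells (limma adjusted p = 0.0478), a call lost after quantile normalization (0.117) and centring (0.125). Against Parental it had 0.16 in line II (limma adjusted p = 0.297). The group means of ZDHHC2, 2.95 to 3.23, lay below the array medians.

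Enzymes of PIP2 metabolism stayed near the share of all genes. Of 24 measured, 3 rose and 2 fell in line I against Mock and 3 rose and 4 fell in line II, with medians of -0.06 and -0.03. OCRL, a PIP2 5-phosphatase, rose by 0.42 and 0.33 (limma adjusted p = 0.000588 and 0.004), and by 0.49 and 0.40 against Parental. PLCB4, a phospholipase C, had -0.69 in line II (limma adjusted p = 3.34e-05), and its -0.25 in line I was no longer called after quantile normalization, at -0.15 (0.2). Against Parental PLCB4 had -1.11 and -1.55, both past the test.

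The 25 membrane-actin linkers included ezrin, radixin and moesin, NF2, NHERF1 and NHERF2, spectrins, ankyrins, adducins, EPB41-type proteins, AKAP5, AKAP12 and class I myosins. Of these 25, 5 rose and 7 fell in line I against Mock, and 4 rose and 7 fell in line II, with medians of 0.03 and -0.11. Ezrin (EZR) was lower than Parental in the other 3 groups, as MARCKS was, with -0.36 for Mock and -0.32 for each line, all past the test. Without its s_at probe set the fall of line I from Parental was -0.24 and no longer called (limma adjusted p = 0.138). Against Mock the lines had 0.03 and 0.04 and did not pass. Moesin (MSN) had -0.25 and -0.36 against Mock, both past the test, and the line I call did not survive quantile normalization, at -0.18 (limma adjusted p = 0.0996). Against Parental MSN had -0.28 and -0.39, both past the test. The line I call ended without any 1 array of Parental or line I (limma adjusted p = 0.0535 to 0.0948). It also ended when MSN was averaged over its probe sets (-0.11, limma adjusted p = 0.18). Radixin (RDX) had -0.20 and -0.13 and did not pass.

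In the same list EPB41L1, a spectrin-binding protein, rose by 1.14 and 0.81 against Mock in lines I and II, and it was 0.33 and -0.005 against Parental, not past the test. EPB41, the founding member of that family, fell with -0.52 and -0.31, the latter call ending under quantile normalization (limma adjusted p = 0.158). Against Parental EPB41 had 0.03 and 0.24, neither past the test, and Mock stood 0.55 above Parental (limma adjusted p = 0.00126). MYO1D, a membrane-binding myosin, had -0.53 in line II against Mock. Its call at -0.41 in line I ended in a fit of these groups alone (limma adjusted p = 0.121) and with the replicate block (0.0583). Against Parental its -0.21 and -0.32 did not pass. The group means of MYO1D, 2.92 to 3.45, lay below the array medians.

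Actin regulators that respond to PIP2 or work at the leading edge fell more often than they rose. Of 37 measured, 9 fell and 3 rose in line I against Mock and 12 fell and 2 rose in line II, with medians of -0.14 and -0.18. Against Parental 10 fell and 2 rose in line I, and 10 fell and 1 rose in line II, with medians of -0.12 and -0.14. Over all genes falls were also more frequent than rises. Against Mock 11.3% of all genes were called lower and 7.67% higher in line I, and 12.6% and 8.19% in line II. Scinderin (SCIN), an actin-severing protein of the gelsolin family, had -1.55 and -1.04 against Mock (limma adjusted p = 1.36e-08 and 9.06e-07) and -1.22 and -0.70 against Parental. DIAPH2, a formin, rose by 0.60 and 0.44 against Mock and by 0.77 and 0.62 against Parental.

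Of 28 growth cone and neurite outgrowth genes, the class in which BASP1 and GAP43 are best known, 2 rose and 5 fell in line I against Mock and 3 rose and 5 fell in line II, with medians of 0.07 and 0.10. NRCAM, a neuronal adhesion molecule, rose by 2.32 and 2.21 against Mock but by 0.56 and 0.45 against Parental. DCLK1, a microtubule-binding kinase of growing neurites, had -1.43 and -1.89 against Mock and -0.42 and -0.88 against Parental, all past the test. For both genes the Mock pool lay on the far side of Parental from the lines, as BASP1 202391_at did.

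Among the partners of nuclear BASP1, the calls against Mock were falls. Of 10 measured corepressor genes 0 rose and 3 fell in line I against Mock, and 0 rose and 2 fell in line II, with medians of -0.14 and -0.05. Against Parental 0 rose and 2 fell in line I, and 0 of the 10 were called in line II. WT1 itself averaged 6.27, 6.48, 6.33 and 6.19 in Parental, Mock, line I and line II. Against Mock it had -0.15 in line I (limma adjusted p = 0.276) and -0.28 in line II (0.0368), the latter a call lost after quantile normalization (0.13) and averaged over its probe sets (-0.07, 0.384). HDAC1, the deacetylase that BASP1 recruits, fell, with -0.58 and -0.29 (limma adjusted p = 0.000138 and 0.0188), and the line II call ended in a fit of these groups alone (0.0831). Against Parental HDAC1 had -0.30 in line I (limma adjusted p = 0.0191) but -0.011 in line II (0.951), and Mock stood 0.28 above Parental (0.0356). The line I call ended without any 1 Parental array or line I replicate 1 or 3 (limma adjusted p = 0.0544 to 0.0837). The Mock call ended in a fit of these groups alone (0.0512) and without any 1 Parental array or Mock replicate 2 or 3 (0.0915 to 0.125). The prohibitins PHB1 and PHB2, which take part in that repression, passed in neither line.

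Of 18 WT1 target genes 3 rose and 4 fell in line I against Mock and 1 rose and 7 fell in line II, with medians of 0.04 and -0.14. Between the lines 6 were higher in line I and 0 lower. Against Parental 3 rose and 3 fell in line I, and 2 rose and 5 fell in line II. Mock itself had 7 of the 18 higher than Parental and 3 lower. EGR1, an immediate early transcription factor, rose by 0.86 in the line I cells (limma adjusted p = 0.00117), beside 0.27 for line II (0.223), and its difference between the lines was 0.59 (0.0433). That last call ended in 7 of the 12 fits without 1 array, at differences of 0.50 to 0.63, among them every fit without a line I array. Against Parental EGR1 was higher by 1.37 in line I, 0.78 in line II and 0.51 in Mock (limma adjusted p = 2.52e-05, 0.00305 and 0.0442). The Mock call ended after quantile normalization, at 0.47 (0.057). VDR, the vitamin D receptor, fell against Mock, with -0.62 and -0.65, and had -0.26 and -0.29 against Parental, where neither passed. CDH1, E-cadherin, rose by 0.28 in the line I cells, a call that ended after centring (limma adjusted p = 0.0863), while line II had -0.70. Against Parental CDH1 was lower everywhere, with -0.86 for Mock, -0.59 for line I and -1.56 for line II (limma adjusted p = 4.02e-06, 0.000107 and 7.33e-09). EGFR rose by 0.37 and 0.42 against Mock, and without its s_at probe set it was 0.10 and 0.27 and passed in neither line. Against Parental EGFR had -0.23 and -0.19, neither past the test, and Mock had -0.60 (limma adjusted p = 0.000312). Without the s_at probe set Mock had -0.22 against Parental and was no longer called (0.194).

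Among the genes of these lists the smaller calls against Mock leaned on single arrays. The fit without Mock replicate 2 ended those of NMT2, PLCB4, MSN, MYO1D, CDH1 and PRKCE in line I, at limma adjusted p of 0.0661 to 0.159. It also ended those of NMT1, ZDHHC2, EPB41, MYO1D, WT1, HDAC1 and PRKCE in line II, at 0.0572 to 0.168. All of these but MYO1D in line II were also lost without at least 1 other array. The calls of PRKCA, SCIN, DIAPH2, OCRL, NRCAM, DCLK1 and EPB41L1 in both lines against Mock held in each of the 12 fits.

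**Figure D4:**
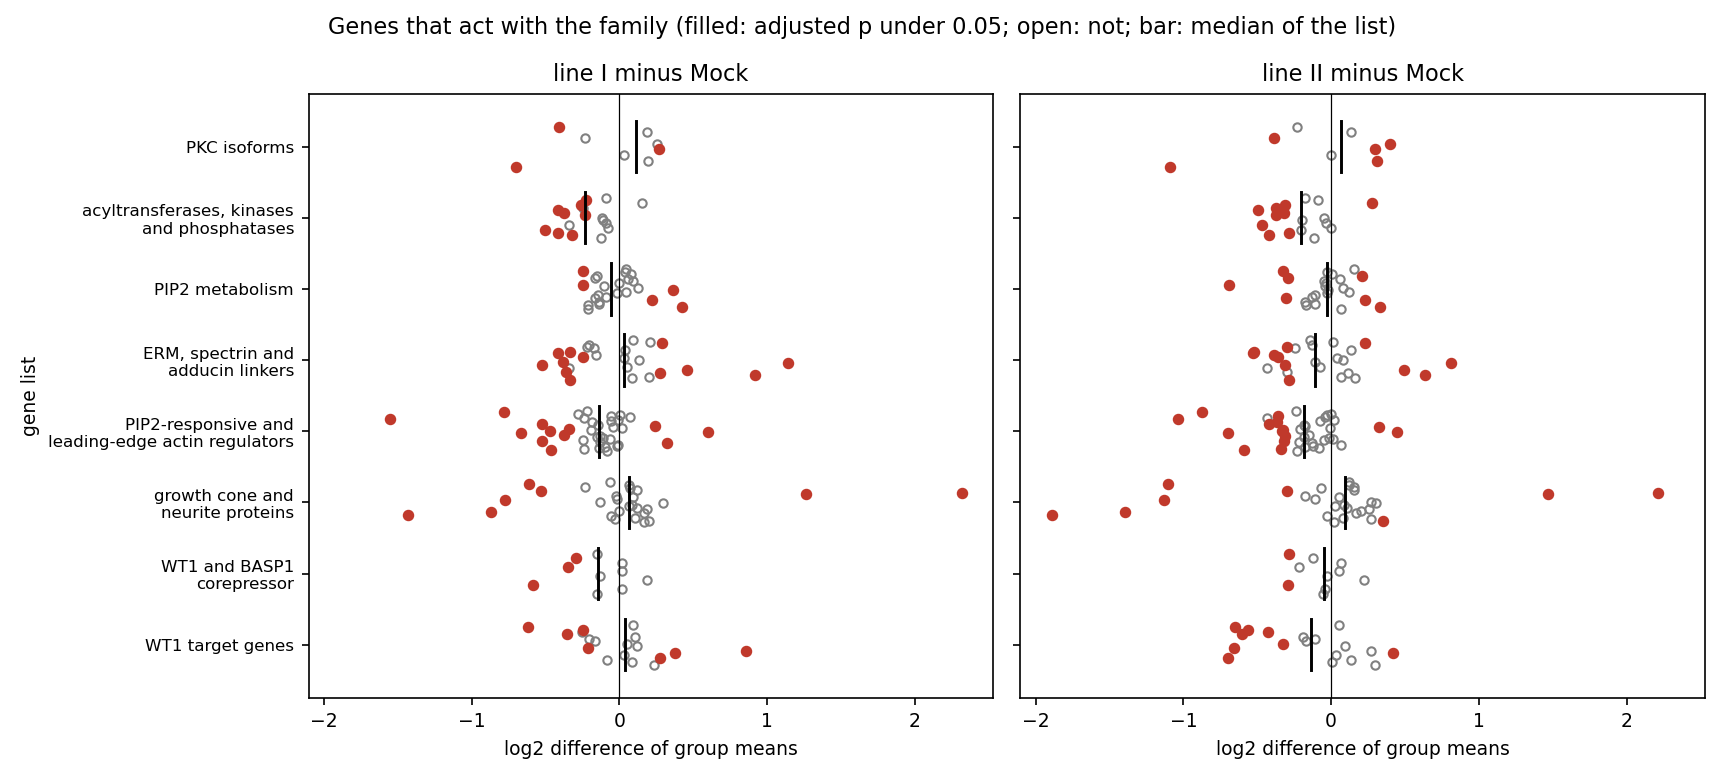
Log2 difference from Mock (x axis, 1 panel for each line, same scale) of the measured genes of the 8 lists on the y axis, with a filled point for each gene past the test, an open point for each other gene and a bar at the list median. The list medians run from -0.23 to 0.11 in line I and from -0.20 to 0.10 in line II, with NRCAM at 2.32 and 2.21 as the highest point.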

How the data were processed

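The deposited log2 values, 1 for each probe set on each of 12 Affymetrix U133 Plus 2.0 arrays (4 groups of 3), came from RMA under R 2.6.0 per the submitters' processing notes. The background step is not given in the sources used here, and scanner files were not used. Names come from the platform annotation: of 41097 probe sets with a single symbol, 41043 matched by Entrez number and 0 were renamed. The members and lists were chosen with earlier results of these data known.

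All 54613 non-control probe sets were fitted together using limma 3.58.1 under R 4.3.3, with lmFit and eBayes on the group means (8 residual and 5.95 prior degrees of freedom). Benjamini-Hochberg adjustment ran over all of them in each of 6 comparisons, at a threshold of 0.05. The script was tested on simulated data. Named were all member probe sets, CXCR4, WT1, PHB1, PHB2, HDAC1, EZR, RDX, MSN, NMT1, NMT2, PRKCA, PRKCD and PRKCE, the largest called rise and fall of each list in each line against Mock, and the 5 profiles nearest to BASP1, the member whose group means span at least 1 log2. Some genes that this rule would name are not reported here. Alternatives were other normalizations, filters, variance models and gene summaries, a replicate block, and each array left out. The number of arrays limits the precision. Promoters are from RefSeq (GRCh38.p14). Figures used Python 3.11.15 and matplotlib 3.10.9.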

Additional observations from a re-analysis of the deposited data

Results flagged for a closer look

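On MARCKS 225897_at, line I exceeded line II by 0.31 on the log2 scale (0.3102 unrounded, SE 0.07, limma adjusted p = 0.0363), tested directly as line I minus line II. All 3 line I arrays lay above all 3 line II arrays, and the other 4 MARCKS probe sets gave no such call.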

How the results depend on the processing

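No member value past the test changed direction under any alternative run. Among other named genes PRKCE did, averaged over its probe sets, at -0.0095 and -0.056 in lines I and II against Mock. The cause of the changes below was not tested, except that gene-level and filtered fits test fewer features. No pairing by replicate number was seen: 1 of 18 same-numbered pairs and 5 of 36 others had a correlation of deviations over 0.1. Such a count cannot exclude pairing, because deviations from a mean of 3 arrays depend on each other. With a replicate block, 0 members were called between the lines (MARCKS 225897_at at 0.31). Quantile normalization called MARCKS 225897_at in line I against Mock (0.29, 1 member), MARCKS 201668_x_at in line I against Parental (-0.52) and MARCKSL1 between the lines (-0.25, 2 members). Median centring called MARCKS 201670_s_at in line II against Mock (-0.31) and 201668_x_at in line I against Parental (-0.54) and ended MARCKSL1 in line II against Mock (0.197). It moved the share of called probe sets that were higher from 41% to 21.9% and from 43.1% to 20.4% in lines I and II against Mock. In line II against Parental the share went from 40.6% to 27.9%, and in Mock against Parental from 61.9% to 73.8%.

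A mean log2 of at least 6 called 225897_at in line I against Mock (0.19, 1 member), 201670_s_at in line II against Mock (-0.24, 2 members) and MARCKSL1 between the lines (-0.24, 2 members, 2906 probe sets in all). The upper 50% by mean and the trended variance called MARCKSL1 between the lines too (-0.24, 2 members each, 2717 and 2850 probe sets) and 201668_x_at in line I against Parental (-0.52), as array weights did (-0.50). A fit of only the groups compared ended MARCKSL1 in line II against Mock (0.28, 0 members, 4539 probe sets, 38 list genes) and against Parental (-0.285). It also ended BASP1 202391_at (0.45) and MARCKS 213002_at (-0.35) in Mock against Parental and 225897_at between the lines (0.31, 0 members, 818 probe sets, 12 list genes). It called 201668_x_at against Parental (-0.52 and -0.38).

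The gene-level test called 4670 and 5168 genes in lines I and II against Mock and 3325 and 3353 against Parental, with 2 members in each of the latter and 3 in Mock against Parental, and MARCKSL1 between the lines (-0.24). An adjusted p under 0.01 left 3878 and 3843 probe sets against Mock, 2997 and 2643 against Parental, 599 between the lines and 2085 in Mock against Parental. List genes then numbered 34, 38, 28, 26, 11 and 24, and members 0 in line II against Mock, 0 between the lines and 2 in Mock against Parental. Without x_at and s_at probe sets 28 list genes were called in line I against Parental and 13 between the lines.

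Leaving out 1 array gave 5016 to 8431 and 5535 to 10940 probe sets in lines I and II against Mock, 3352 to 6709 in line II against Parental, 774 to 1977 between the lines and 2713 to 4767 in Mock against Parental. List genes ran from 36 to 59 in line I against Mock and 11 to 19 between the lines. Members called ran from 0 to 1 in line I and 0 to 3 in line II against Mock, 0 to 1 between the lines and 3 to 7 in Mock against Parental. In Mock against Parental BASP1 202391_at ran from 0.33 to 0.56, and the MARCKS probe sets from -0.60 to -0.26 (201668_x_at), -0.46 to -0.37 (201670_s_at), -0.43 to -0.29 (213002_at) and -0.37 to -0.32 (225897_at). Against Parental, 201668_x_at ran from -0.63 to -0.42 in line I and -0.47 to -0.30 in line II, 213002_at from -0.38 to -0.27 in line I and MARCKSL1 from -0.33 to -0.26 in line II. In line II against Mock, 201669_s_at ran from -0.28 to -0.048, 201670_s_at from -0.34 to -0.14, MARCKSL1 from 0.24 to 0.31 and GAP43 216963_s_at from 0.12 to 0.34, and the last from 0.080 to 0.30 in line I. MARCKS 225897_at ran from 0.25 to 0.35 between the lines.

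No background level or detection call is used here, so values below the array median, among them BASP1 in both lines and every GAP43 value, have no stated floor. With 3 arrays a group, 1 array decided several of the calls above.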
